A study of Homo sapiens with 4 samples.

Results

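The MYC, MAX and MXD network is described here through 10 genes, MYC, MYCN, MAX, MXD1, MXD3, MXD4, MXI1, MNT, MGA and MLX, out of 23228 gene rows in each count file. They were taken by gene symbol, and all 10 symbols had a row. RNA sequencing counts came from Daoy, an established human medulloblastoma cell line, in 2 groups of 2 libraries. In one group the cells stably carried a control shRNA from a lentiviral vector, and in the other a lentiviral shRNA against PELP1, a scaffold protein that acts as a nuclear receptor coregulator and takes part in ribosome maturation. All cells grew in the same serum-containing medium, and the sources used here do not give the number or sequence of the shRNAs. The labels do not say whether the libraries of a group came from separate cultures, so the spread that p-values are set against may be technical.

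MYC and MYCN are transcription factors of the basic helix-loop-helix leucine zipper family that bind DNA as dimers with MAX, chiefly at the E-box, and raise transcription of genes for growth, nucleotide synthesis and ribosome assembly. The MXD proteins (MXD1, MXD3, MXD4 and MXI1), MNT and MGA compete for MAX and repress, the MXD proteins and MNT through the SIN3 corepressor and MGA within a polycomb complex. MLX is the MAX-like partner of a parallel branch that senses glucose through MLXIP (MondoA) and MLXIPL (ChREBP), and it also pairs with some MXD proteins and MNT. Amplification or high expression of MYC and MYCN marks subgroups of medulloblastoma.

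Library sizes ranged from 24052542 to 29221640 counts in genes. Levels below are TMM-scaled CPM, counts brought to one common library size, and changes are log2 fold changes of PELP1 shRNA over control shRNA from edgeR's quasi-likelihood test with a false discovery rate (FDR) threshold of 0.05. PELP1 itself stood at 168 and 185 CPM in the control libraries and at 55.6 and 49.7 CPM in the PELP1 shRNA libraries, 29.8% of control. In bulk RNA, a lower count can come from fewer cells that express a gene or from less RNA per cell, and these cannot be told apart. Of 12 genes of the granule cell lineage, neural progenitors and hedgehog signalling, 9 had enough counts to test, while ATOH1, BARHL1 and NEUROD1 had at most 8 counts in either group. Their summed level was 5590 and 5726 CPM with the control shRNA and 4001 and 4000 CPM with the PELP1 shRNA, almost all of it from VIM (vimentin), which fell. Of the 9 tested, 4 were higher (GLI1, PAX6, OTX2 and ZIC2), 3 lower (VIM, GLI2 and SOX2) and 2 not past the threshold. The called share was 77.8%, against 58.1% of all genes. DESeq2 called 1 higher and 2 lower, against 3092 and 3476 of all 14972 genes. The median log2 fold change was 0.26, but 0.07 with a filter at 5 CPM (8 tested) and 0.06 with no filter (12 tested). Of 7 markers of other cell types, ALB was at 0 and PTPRC and RBFOX3 had too few counts to test, and 3 of the 4 tested were higher (EPCAM, PECAM1 and MBP). EPCAM (0.38 and 0.12 CPM against 0.70 and 0.87 CPM) and PECAM1 (0.47 and 0.27 CPM against 1.89 and 1.78 CPM) were close to the detection limit. Both passed the filter on low counts only through the PELP1 shRNA libraries, where they are high, so their calls are no support. The summed level of the 7 markers was 40.6 and 15.1 CPM in the control libraries and 40.2 and 18.8 CPM in the PELP1 shRNA libraries. It came mostly from GFAP, which was high in the first library of both groups. Their part in the results was not tested.

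MYC fell and 3 of the 4 MXD repressors rose with the PELP1 shRNA. Over the 10 genes, MYC and MAX were lower, MYCN, MXD3, MXD4 and MXI1 were higher, and MXD1, MNT, MGA and MLX did not pass the threshold. The shRNA groups differed at this threshold in 58.1% of all 14972 genes tested (28.6% higher and 29.5% lower), so that 6 called genes out of 10 is close to the background share. The CPM values of the groups did not overlap for 7 of the 10 genes, against 77.7% of all genes tested. The median log2 fold change was 0.02 over the members and 0.00 over all genes, and the median absolute change was 0.26 in both. What set the members apart from one another was direction and size, from −0.90 for MYC to 1.64 for MYCN. MYCN passed the filter on low counts only through the PELP1 shRNA libraries, since 1 of the 2 control libraries reached the required 0.375 CPM. A gene tested for that reason is more likely to differ, so its call is no support for these counts. Scaled by library size alone, 5 members were higher and 1 lower, against 5681 and 3305 of all 14972 genes tested. In that fit 63.2% of all called genes were higher in place of 49.1%.

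**Figure D1:**
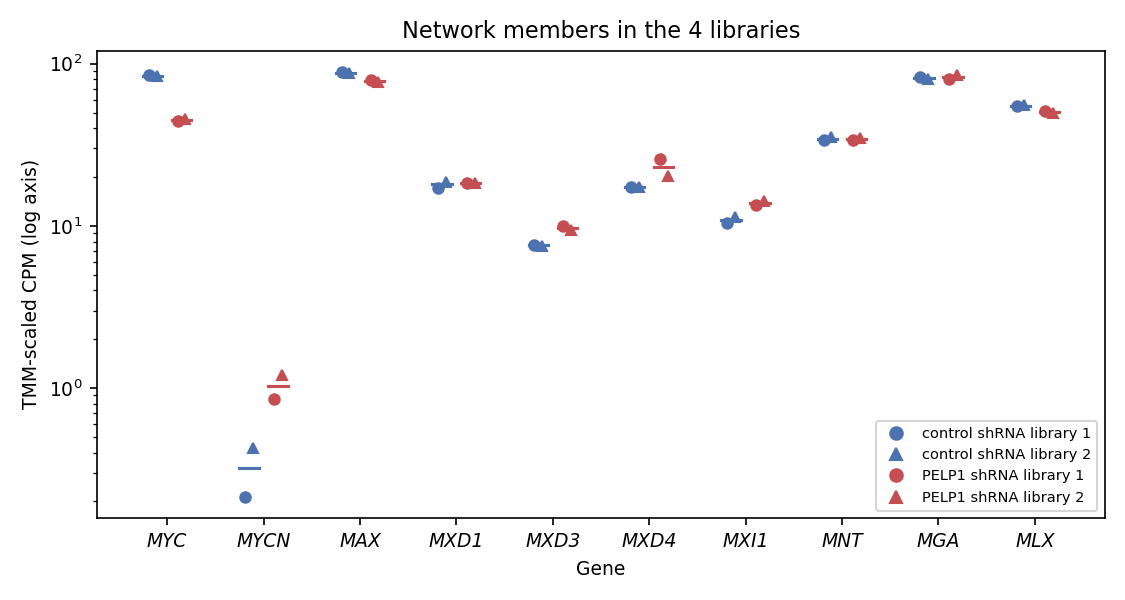
TMM-scaled CPM (log axis) of each network gene in the 4 libraries. Circles and triangles are the first and second library of a group, blue is control shRNA, red is PELP1 shRNA and lines are group means. MYC sat at 84.7 and 84.0 CPM with the control shRNA and 44.5 and 45.9 CPM with the PELP1 shRNA, while MXD1, MNT and MGA overlapped between the groups.

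MYC, the broadly acting activator of the network, was counted 1981 and 2162 times with the control shRNA and 1344 and 1265 times with the PELP1 shRNA. These were 84.7 and 84.0 CPM against 44.5 and 45.9 CPM, so the libraries of each group lay close together and far from the other group. The level fell to 53.6% of control, a log2 fold change of −0.90 ± 0.05 (SE, edgeR FDR = 7.09e-23). Only 4.5% of all genes tested had a lower fold change. Of the 9 members other than MYCN, MYC was the only one to pass a test against a change of 1.5-fold (edgeR glmTreat adjusted p = 4.11e-07), which 9.63% of all genes passed. The fall was called in all 15 alternative analyses, with values from −0.92 to −0.81. The gene lies on chromosome 8 and has 3 exons in its canonical transcript, of which 194 bases are antisense to the noncoding gene CASC11. The noncoding gene PVT1, the neighbour of MYC, stood at 6.97 and 10.0 CPM in the control libraries and at 5.73 and 5.48 CPM in the PELP1 shRNA libraries. It fell by 0.61 ± 0.14 on the log2 scale (SE, edgeR FDR = 0.000135), a change that rested on the second control library, without which it was −0.31 with an adjusted p of 0.115.

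MYCN, the paralogue best known from neuroblastoma and from neural progenitors, moved the other way from a level close to the detection limit. Its counts were 5 and 11 with the control shRNA and 26 and 33 with the PELP1 shRNA, or 0.21 and 0.43 CPM against 0.86 and 1.20 CPM. Both PELP1 shRNA libraries were above both control libraries. Summed over libraries, the scaled ratio was 3.14, with a 95% interval of 1.78 to 5.84 that covers counting error only (the reads carry no molecular identifiers). The fitted log2 fold change was 1.64 ± 0.41 (SE), given as a description because the gene was tested only through the group where it is high. It ranged from 1.25 to 2.23 over the 14 alternatives that kept the gene. MYCN lies on chromosome 2 (hg19, 16080672 to 16087129, plus strand), and 98 bases of its transcript are antisense to MYCNOS, which was listed at 0 in all libraries. Even with the PELP1 shRNA, MYCN was the least abundant member, at 0.39 CPM per kilobase of transcript against 12.1 for MYC. The related gene of L-MYC, listed as MYCL1, did not pass the threshold, with 2.57 and 1.79 CPM against 2.88 and 1.85 CPM (log2 fold change 0.14 ± 0.22, SE, edgeR FDR = 0.614).

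MAX, the partner that MYC, MYCN, the MXD proteins, MNT and MGA share, was slightly lower. It stood at 88.9 and 87.4 CPM with the control shRNA and 79.4 and 77.0 CPM with the PELP1 shRNA, with no overlap, a log2 fold change of −0.17 ± 0.05 (SE, edgeR FDR = 0.00211). With library size alone as the scaling, the change was −0.08 with an adjusted p of 0.149, so this call depended on the scaling. The ratio of MYC to MAX counts within a library does not depend on the scaling. It was 0.953 and 0.961 with the control shRNA and 0.561 and 0.596 with the PELP1 shRNA. MYC therefore fell relative to MAX in both PELP1 shRNA libraries. MAX is on chromosome 14 (hg19, 65472892 to 65569413, minus strand), and 108 bases of its transcript overlap an unnamed gene on the other strand.

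The 4 MXD repressors did not all move alike. MXD4 stood at 17.4 CPM in both control libraries (17.45 and 17.41) and at 25.9 and 20.4 CPM in the PELP1 shRNA libraries, a log2 fold change of 0.41 ± 0.09 (SE, edgeR FDR = 8.51e-05). The first PELP1 shRNA library lay well above the second, and without it the change was 0.23 with an adjusted p of 0.0643. That library was also the deepest of the 4, whose part in the value was not tested. MXD3, which is expressed in cycling cells and has been studied in granule neuron precursors, rose from 7.66 and 7.54 CPM to 9.94 and 9.43 CPM, a log2 fold change of 0.35 ± 0.12 (SE, edgeR FDR = 0.0073). It missed the threshold with DESeq2 (adjusted p = 0.0939) and without the first PELP1 shRNA library (0.31, adjusted p = 0.0573). MXI1, first found as a protein that binds MAX, rose from 10.4 and 11.3 CPM to 13.4 and 14.1 CPM, a log2 fold change of 0.35 ± 0.10 (SE, edgeR FDR = 0.00261). For each of these 3 genes both PELP1 shRNA libraries were above both control libraries. MXD1, the member tied to terminal differentiation in blood cells, stood at 17.2 and 18.8 CPM against 18.4 and 18.3 CPM, with overlapping groups (0.03 ± 0.09, SE, edgeR FDR = 0.814).

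Relative to MAX counts in the same library, MXD4 went from 0.196 and 0.199 to 0.326 and 0.265, MXD3 from 0.0861 and 0.0863 to 0.125 and 0.122, and MXI1 from 0.116 and 0.129 to 0.169 and 0.184. On this ratio the groups did not overlap for any of the other 9 members, MAX itself being lower, so this was not particular to these 3. The share of all genes whose groups were apart on this ratio was not computed, so the count has no background to be read against. MXD1 went from 0.194 and 0.215 to 0.232 and 0.238, MNT from 0.381 and 0.403 to 0.428 and 0.450, MGA from 0.927 and 0.918 to 1.01 and 1.10, and MLX from 0.613 and 0.634 to 0.645 and 0.642. None of MXD3, MXD4 and MXI1 passed the test against a 1.5-fold change, so their rises were small beside the fall of MYC. Where the biological variation was assumed to be 10%, well above the 2.99% estimated from these libraries, MXD4 (adjusted p = 0.0348) and MYC passed and MXD3 (0.116), MXI1 (0.1) and MAX (0.411) did not. At that setting 29.1% of all genes were called. At an assumed 20%, MYC was the only one called of the 9 members other than MYCN, while 8.85% of all genes were called. MXD3 is on chromosome 5 (hg19, 176728462 to 176739758, minus strand), MXD4 on chromosome 4 (2249159 to 2263836, minus strand), MXI1 on chromosome 10 (111967363 to 112047123, plus strand) and MXD1 on chromosome 2 (70124820 to 70170077, plus strand). The MXD3 and MXD1 transcripts overlap no exon of another gene, while 205 bases of MXI1 overlap an unnamed gene on the other strand and 80 bases of MXD4 hold a microRNA gene, MIR4800.

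**Figure D2:**
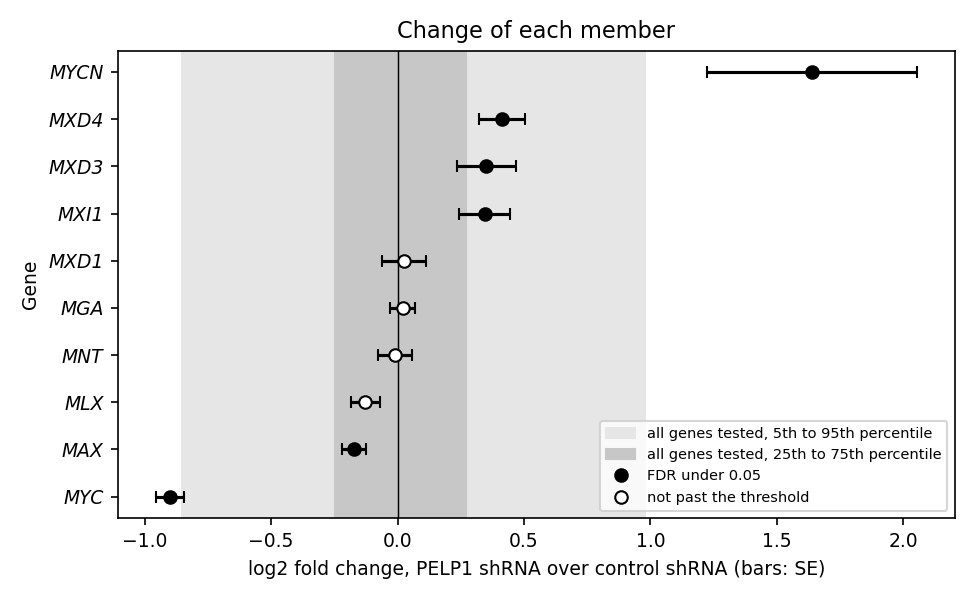
Log2 fold change of PELP1 shRNA over control shRNA for each member (points, with SE bars), filled where the edgeR FDR was under 0.05. Dark and light grey bands span the 25th to 75th and 5th to 95th percentiles of all 14972 genes tested (−0.25 to 0.27 and −0.85 to 0.98). MYC and MYCN lay outside the wider band, and MXD3, MXD4 and MXI1 lay just above the narrower one.

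The promoters of the 3 MXD genes that rose were searched for the E-box letters CACGTG, which read the same on both strands and which MYC, MXD and MNT dimers with MAX are known to bind. The search used RefSeq promoter windows (GRCh38.p14, the 250 bases before a transcription start) and took in 14 windows of 9 of the 10 members. MYC was not among these 9, so its promoter was not searched and whether it holds the letters was not tested. The letters were in 1 window each of MXD4, MNT and MLX, and in 6.34% of all 35116 windows of that length. They began 238 bases before the start in MXD4, 193 in MNT and 50 in MLX. Of these 3 genes, MXD4 rose, while MNT and MLX did not pass the threshold. The windows of MXD3 and MXI1, the other repressors that rose, did not hold the letters. The 3 windows with the letters (in capitals) are shown first, then the MXD3 window and the most upstream of 3 windows of MXI1, so that risers with and without the letters can be compared. The windows are chr4:2262110-2262359 (minus strand), chr17:2401061-2401310 (minus strand), chr17:42566850-42567099 (plus strand), chr5:177312753-177313002 (minus strand) and chr10:110207355-110207604 (plus strand). Each is written from 5′ to 3′ on the strand of its gene.
MXD4: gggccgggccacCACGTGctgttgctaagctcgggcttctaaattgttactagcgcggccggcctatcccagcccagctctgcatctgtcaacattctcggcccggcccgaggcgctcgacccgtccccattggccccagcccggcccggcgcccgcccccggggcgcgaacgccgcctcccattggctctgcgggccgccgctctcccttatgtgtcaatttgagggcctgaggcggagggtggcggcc
MNT: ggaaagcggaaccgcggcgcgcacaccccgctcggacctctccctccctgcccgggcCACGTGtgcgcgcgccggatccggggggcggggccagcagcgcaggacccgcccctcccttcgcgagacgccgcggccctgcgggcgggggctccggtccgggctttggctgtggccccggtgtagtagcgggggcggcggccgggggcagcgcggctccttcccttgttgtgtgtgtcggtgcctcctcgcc
MLX: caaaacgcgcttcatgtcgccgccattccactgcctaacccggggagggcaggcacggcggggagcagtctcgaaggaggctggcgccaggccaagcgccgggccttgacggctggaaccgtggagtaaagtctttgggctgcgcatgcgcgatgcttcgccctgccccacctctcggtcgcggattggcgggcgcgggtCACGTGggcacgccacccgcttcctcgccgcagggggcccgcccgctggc
MXD3: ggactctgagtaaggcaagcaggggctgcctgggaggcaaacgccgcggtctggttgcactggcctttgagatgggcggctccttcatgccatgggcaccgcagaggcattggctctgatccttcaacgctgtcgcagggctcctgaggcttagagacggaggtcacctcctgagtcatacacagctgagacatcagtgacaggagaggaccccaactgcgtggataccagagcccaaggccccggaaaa
MXI1: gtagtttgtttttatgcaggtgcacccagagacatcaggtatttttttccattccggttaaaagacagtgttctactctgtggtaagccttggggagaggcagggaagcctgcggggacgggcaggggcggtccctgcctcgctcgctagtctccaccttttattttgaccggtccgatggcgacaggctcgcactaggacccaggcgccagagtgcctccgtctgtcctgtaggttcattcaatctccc

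MNT and MGA, the large repressors of the network, overlapped between the groups. MNT, the most widely expressed antagonist of MYC, stood at 33.9 and 35.2 CPM with the control shRNA and 34.0 and 34.7 CPM with the PELP1 shRNA. Its log2 fold change was −0.01 ± 0.07 (SE, edgeR FDR = 0.92), and no alternative called it. MGA, which carries a T-box domain beside its helix-loop-helix domain, stood at 82.4 and 80.2 CPM against 80.1 and 84.9 CPM (0.02 ± 0.05, SE, edgeR FDR = 0.742). It was called higher with library size alone as the scaling (0.11, adjusted p = 0.0497). The gene of MNT is on chromosome 17 (hg19, 2287367 to 2304398, minus strand), and 1065 of the 4925 bases of its transcript overlap an unnamed gene on the other strand. MGA is on chromosome 15 (hg19, 41913332 to 42065279, plus strand), has 24 exons and overlaps no other exon.

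MLX, the partner of MLXIP and MLXIPL, stood at 54.5 and 55.4 CPM in the control libraries and 51.2 and 49.4 CPM in the PELP1 shRNA libraries. The groups did not overlap, yet the change of −0.13 ± 0.06 (SE, edgeR FDR = 0.0516) missed the threshold, and it was called only with RLE factors (adjusted p = 0.0497). MLX lies on chromosome 17 (hg19, 40719090 to 40725257, plus strand), and 775 of the 2360 bases of its transcript overlap PSMC3IP on the other strand. The sources used here do not say whether the counting used strand, so reads of such pairs cannot be told apart. MLXIP, which moves with MLX to the nucleus when glucose phosphates rise, stood at 68.4 and 73.9 CPM against 68.5 and 64.5 CPM (−0.10 ± 0.05, SE, edgeR FDR = 0.111). MLXIPL was scarce, at 1.54 and 1.48 CPM against 2.12 and 2.39 CPM (0.58 ± 0.24, SE, edgeR FDR = 0.0321). The MLXIPL call was lost with DESeq2 (adjusted p = 0.207), at assumed variation of 10% and 20% and in the 1.5-fold test. It was also lost without either control library or without the second PELP1 shRNA library.

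**Figure D3:**
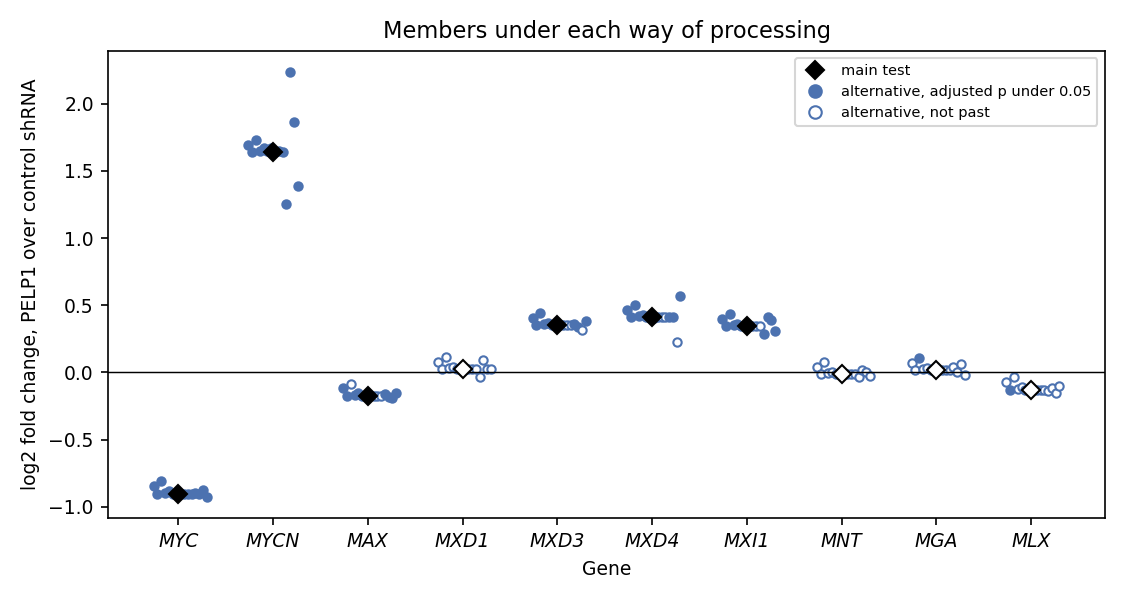
Log2 fold change of each member in the main test (diamond) and in up to 15 alternative analyses (circles), filled where the adjusted p was under 0.05. MYC stayed between −0.92 and −0.81 and was called in all 15, while MXD3 was called in 10, MAX in 11, and MXD4 and MXI1 in 12 each.

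Levels were compared between members only per length, as CPM per kilobase of the canonical GENCODE transcript. With the control shRNA, MAX was highest at 43.9 ± 0.54 (SD, n = 2), followed by MLX at 23.3 ± 0.26 and MYC at 22.7 ± 0.14. Then came MXD3 (7.12 ± 0.08), MNT (7.01 ± 0.19) and MGA (6.67 ± 0.13), of which MXD3 and MNT did not differ beyond their spread. MXD4 (4.50 ± 0.01) stood above MXD1 (3.25 ± 0.20) and MXI1 (3.12 ± 0.19), and the last pair did not differ beyond their spread either. MYCN was lowest at 0.12 ± 0.06. With the PELP1 shRNA the order was the same except that MXI1 (3.96 ± 0.16) passed MXD1 (3.31 ± 0.01). MYC kept its rank with 12.1 ± 0.26, behind MLX at 21.3 ± 0.54. The order depended on the length used. Per kilobase of all annotated exons, MXD3 ranked 9 in place of 4 in both groups, and MYC ranked 2 at 13.8 with the control shRNA and 3 at 7.40 with the PELP1 shRNA.

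Summed by role on the same per-kilobase scale, MYC with MYCN made up 18.8% and 18.7% of the network's transcripts with the control shRNA and 11.2% and 11.9% with the PELP1 shRNA. The 4 MXD repressors together made up 14.61% and 14.96% against 21.03% and 19.98%. Their summed level was 0.781 and 0.806 times that of MYC with the control shRNA and 1.94 and 1.74 times with the PELP1 shRNA. With exon unions as lengths these ratios were 0.622 and 0.654 against 1.51 and 1.36, so the MXD sum was below MYC in both control libraries and above it in both PELP1 shRNA libraries on either length. MNT with MGA went from 0.599 and 0.608 times the MYC level to 1.13 and 1.14 times, while their own summed level was 13.6 and 13.7 against 13.5 and 14.0 CPM per kilobase. MAX kept a nearly constant share, 36.4% and 35.8% against 35.9% and 35.6%. These are proportions of RNA, and protein was not measured here.

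**Figure D4:**
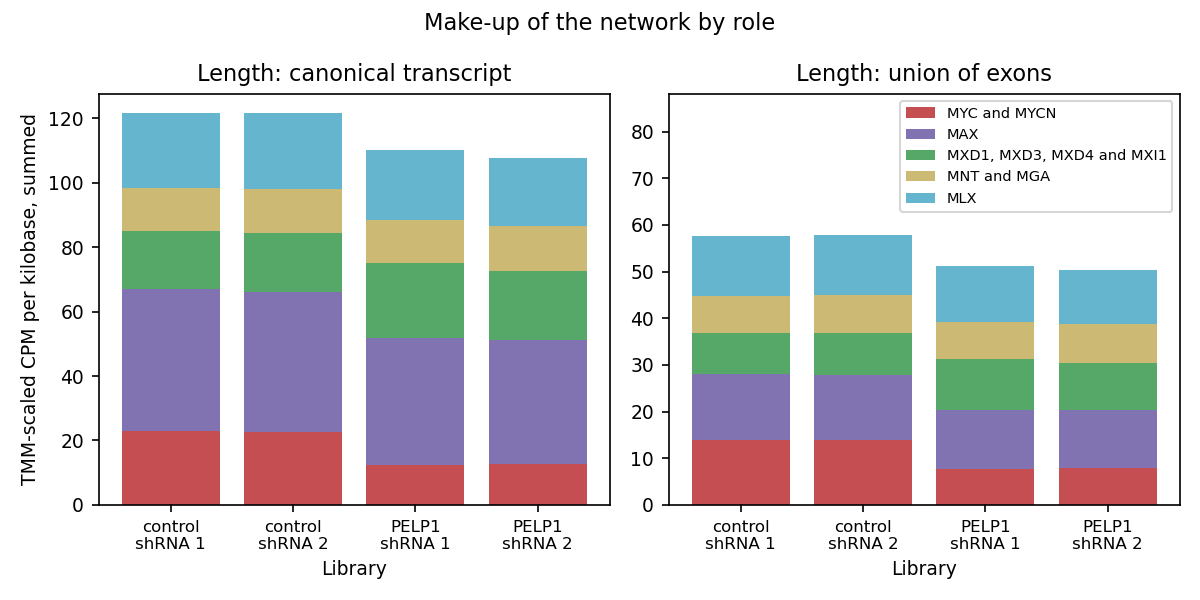
Summed TMM-scaled CPM per kilobase by role in each library, with the canonical transcript (left) or the union of exons (right) as the length, on separate axes. The segment of MYC and MYCN shrank from 22.9 and 22.7 to 12.3 and 12.8 on the left, while that of the MXD repressors grew from 17.8 and 18.2 to 23.2 and 21.5.

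Genes that MYC with MAX is known to induce were mostly lower. Of 31 tested, 22 were lower, 3 higher and 6 not past the threshold. The median log2 fold change was −0.22, against 0.00 over all genes. Those called made up 80.6% of the list, against 58.1% of all genes. The ribosome assembly factor gene BOP1 fell from 8.40 ± 0.32 to 4.10 ± 0.87 CPM (SD, n = 2; −1.04 ± 0.14, SE, edgeR FDR = 2.46e-09). CAD, the enzyme that starts pyrimidine synthesis, fell from 369.7 ± 14.5 to 220.1 ± 4.25 CPM (SD, n = 2; −0.75 ± 0.04, SE, edgeR FDR = 1.29e-26). MRTO4, a factor of large ribosomal subunit assembly, fell by 0.69 ± 0.05 on the log2 scale (SE, edgeR FDR = 3.4e-21). The 3 genes that rose, named after their values were seen, were CDK4 (0.22), TFAM (0.32) and POLR1B (0.32). With library size alone, 17 fell and 3 rose, with a median of −0.13 against 0.09 over all genes. The list holds many ribosome assembly genes, EIF4A1 was listed at 0 in all libraries and was not tested, and the list was written with results of these data known.

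Genes that MYC is known to repress moved both ways. Of 11 tested, 4 were higher, 5 lower and 2 not past the threshold, and the median was 0.08. The called share was 81.8%, against 58.1% of all genes. The balance turned to 5 higher and 4 lower with upper-quartile factors (median 0.13) and with library size alone (median 0.17). Over all genes these scalings gave medians of 0.06 and 0.09. The list median was −0.02 with the filter at 5 CPM and −0.03 with no filter. The 3 with the largest called changes at 5 CPM or more all fell. GADD45A, a growth arrest and DNA damage gene, fell from 72.3 ± 0.82 to 24.7 ± 2.07 CPM (SD, n = 2; −1.55 ± 0.06, SE, edgeR FDR = 1.9e-31). The receptor gene PDGFRB fell by 0.87 ± 0.11 and CDKN1A, the cyclin-dependent kinase inhibitor p21, fell by 0.86 ± 0.06 on the log2 scale (SE, edgeR FDR = 2.61e-10 and 3.84e-21). The 4 that rose, named after their values were seen, were CEBPA (1.00), CDKN1C (0.75), CDKN1B (0.38) and THBS1 (0.32). CEBPA and CDKN1C stood below 6 CPM in both groups.

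Of 5 tested genes known to respond to MLX with MLXIP or MLXIPL, 4 were higher and 1 lower (median 0.48), while 28.6% of all genes were higher and 29.5% lower. ACACA, acetyl-CoA carboxylase of fatty acid synthesis, rose from 68.7 ± 1.76 to 97.1 ± 0.46 CPM (SD, n = 2; 0.50 ± 0.05, SE, edgeR FDR = 1.27e-13). The arrestin family gene ARRDC4 rose from 6.70 ± 0.02 to 9.46 ± 0.63 CPM (SD, n = 2; 0.50 ± 0.12, SE, edgeR FDR = 0.000304). KLF10 fell from 59.6 ± 0.22 to 38.2 ± 0.46 CPM (SD, n = 2; −0.64 ± 0.06, SE, edgeR FDR = 7.78e-15). The other 2 that rose, named after their values were seen, were TXNIP (0.48), from 4.33 to 6.02 CPM, and FASN (0.39).

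Partner proteins of the network moved in both directions. Of 18 MYC cofactors, 5 rose, 5 fell and 8 did not pass (median −0.01), a called share of 55.6% against 58.1% of all genes. The ATPase gene RUVBL1 rose from 173.2 to 244.6 CPM (0.50 ± 0.04, SE, edgeR FDR = 1.66e-17), and the elongation kinase gene CDK9 fell from 165.0 to 118.7 CPM (−0.48 ± 0.04, SE, edgeR FDR = 4.77e-15). TRRAP, the scaffold of acetyltransferase complexes recruited by MYC, fell by 0.37 ± 0.04 on the log2 scale (SE, edgeR FDR = 9.81e-13). With library size alone 8 cofactors rose and 5 fell, and the median was 0.08, against 0.09 over all genes.

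Of 17 corepressor genes of the MXD proteins and MNT, 8 rose, 4 fell and 5 did not pass (median 0.08). The called share was 70.6%, against 58.1% of all genes. With library size alone 10 rose and 4 fell, with a median of 0.17 against 0.09 over all genes. The SIN3 scaffolds went in opposite directions, SIN3A rising from 91.7 ± 1.02 to 140.2 ± 6.23 CPM (SD, n = 2; 0.61 ± 0.05, SE, edgeR FDR = 1.71e-18). SIN3B fell from 76.2 ± 0.90 to 55.1 ± 0.61 CPM (SD, n = 2; −0.47 ± 0.05, SE, edgeR FDR = 1.55e-11).

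Among 12 genes of the polycomb complex that holds MGA and MAX, 6 rose, 1 fell and 5 did not pass (median 0.11). The called share was 58.3%, close to the 58.1% of all genes. Those named are YAF2 (0.54 ± 0.08, SE, edgeR FDR = 3.28e-08), the ubiquitin ligase gene RING1 (0.36 ± 0.05) and TFDP1, the dimer partner of E2F factors (0.24 ± 0.04). HDAC1, which the corepressor list also holds, was the gene that fell (−0.22). Without the second PELP1 shRNA library 4 rose and 1 fell.

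Of 20 genes that act on the stability of MYC protein, 9 rose, 6 fell and 5 did not pass (median 0.09). The called share was 75% against 58.1% of all genes. With library size alone 12 rose and 4 fell, with a median of 0.18 against 0.09 over all genes. The deubiquitinase genes split, with USP28 rising from 38.2 ± 0.05 to 62.5 ± 1.11 CPM (SD, n = 2; 0.71 ± 0.06, SE, edgeR FDR = 1.27e-16). USP7 fell from 151.6 ± 0.62 to 85.2 ± 1.27 CPM (SD, n = 2; −0.83 ± 0.04, SE, edgeR FDR = 3.65e-25), and USP36 fell from 111.1 to 72.5 CPM (−0.61 ± 0.05, SE, edgeR FDR = 1.42e-17).

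**Figure D5:**
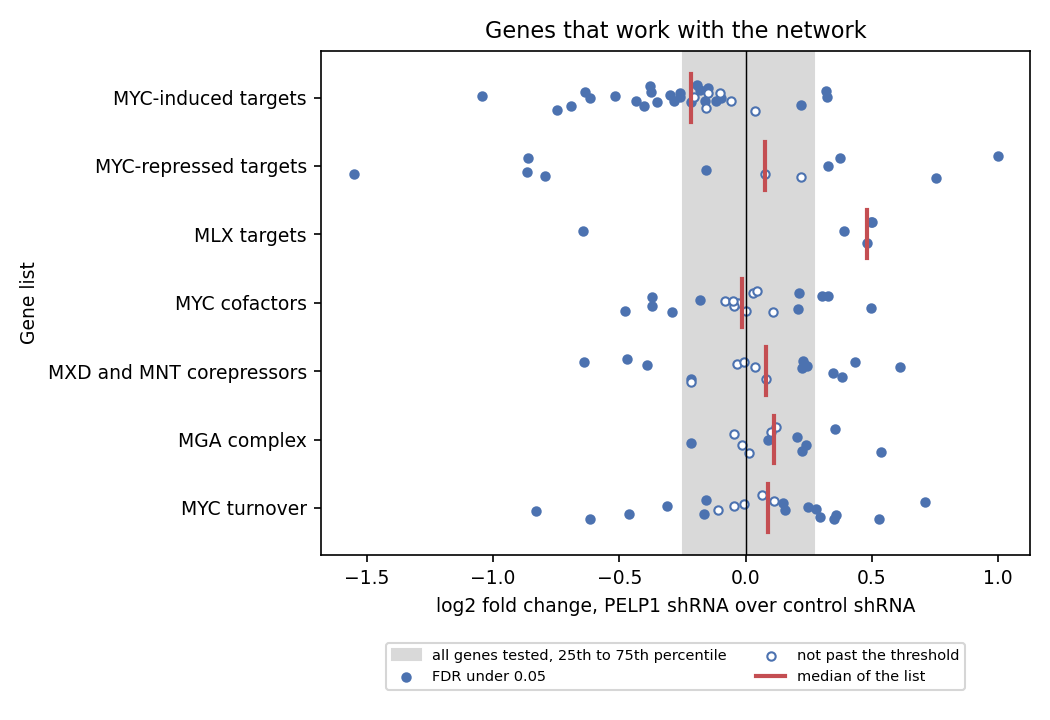
Log2 fold change of PELP1 shRNA over control shRNA for each tested gene of 7 lists (points, spread vertically for legibility), filled where the edgeR FDR was under 0.05, with the list median as a red line. The grey band spans the 25th to 75th percentiles of all genes tested (−0.25 to 0.27). MYC-induced targets lay mostly left of 0 (22 of 31 lower), and the other lists had called genes on both sides.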

How the data were processed

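Total RNA from 4 Daoy samples was made into TruSeq libraries and sequenced in 50 bp single-end mode, per the labels' protocols. The submitters' processing notes name hg19, TopHat2 2.0.8b for alignment and HTSeq for counting, and the sources used here do not give the annotation or strand setting. The values the authors deposited are raw read counts per gene symbol. Of each file, 5 summary rows name no gene (38.8% to 40.5% of each file's total) and were left out.

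All genes were fitted together in edgeR 4.0.16 (R 4.3.3) with filterByExpr, TMM scaling, robust quasi-likelihood F tests of shRNA group, two-sided, and Benjamini-Hochberg adjustment over 14972 genes. The SE is the absolute log2 fold change divided by the square root of F. DESeq2 1.42.0, limma-voom (limma 3.58.1), other scalings and filters, assumed variation, a 1.5-fold test and leaving out each library were alternatives. The fits were tested on simulated data with few planted changes and low variation. That test does not cover a change as broad as the one seen here. Replicates differed beyond counting noise (chi-square per degree of freedom 2.47 and 2.37), and each library was treated as a replicate. These values do not show whether the libraries came from separate cultures.

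Members and lists were chosen with earlier results of these data known. Named were PELP1, all members, related and neighbouring genes, and up to 3 genes per list with the largest called change at a mean of at least 5 CPM and groups that did not overlap. Lengths and hg19 coordinates came from GENCODE v44 mapped to GRCh37. No gene set test was run. One gene that this rule names is not reported here.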

Additional observations from a re-analysis of the deposited data

How the results depend on the processing

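No alternative turned the direction of a member called in the main test. The 6 called members had 15 alternative values each (14 for MYCN, because the filter at 5 CPM removed it). With assumed variation of 10%, 2187 genes were higher and 2176 lower, with 20% 685 and 640, and against a 1.5-fold change 709 and 733. Network members called higher then numbered 2, 1 and 1, and those called lower 1, 1 and 1. Each count of members called higher includes MYCN, which passed the filter on low counts only through the PELP1 shRNA libraries. The called shares of all genes were 29.1%, 8.85% and 9.63%. With library size alone, 1 member was lower, as were 3305 of all 14972 genes tested. Leaving out 1 library at a time left 1 library in a group. The median log2 fold change was then 0.0024 to 0.0554 over the members, against −0.001 to 0.0054 over all genes.

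At 10%, 20% and the 1.5-fold test, the genes past the threshold were 1, 0 and 0 of the MGA complex, 5, 0 and 0 corepressors, 4, 0 and 0 MYC cofactors, 5, 1 and 2 turnover genes and 10, 1 and 3 MYC-induced targets. At 20% and the 1.5-fold test they were 0 and 0 MLX targets and 4 and 4 MYC-repressed targets. Over the members, 15 alternative values lost a call and 2 gained one, and over the other named genes 41 lost one and 1 gained one.

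The replicate numbers in the labels do not pair the samples by any stated source, and deviations of same-numbered libraries correlated at 0.011. With the replicate block, 4010 genes were higher and 4151 lower, and 4 members were higher and 2 lower. MYCN, with 16 counts over the control libraries, is the member that depth limits most.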
